A study of Mus musculus with 6 samples.

Results

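The genes described here encode the enzyme complex that writes N6-methyladenosine (m6A) into RNA and the YTH proteins that bind it, 6 writers (Mettl3, Mettl14, Wtap, Zc3h13, Cbll1 and Rbm15) and 4 readers (Ythdf1, Ythdf2, Ythdf3 and Ythdc1). They were chosen by gene symbol, as all probe sets that the platform annotation pairs with 1 of these symbols and no other. Of the 10 genes 9 were found in this way, read by 18 of the 34945 probe sets of 1 gene symbol, and Ythdf2 was not analysed here. The arrays measured total RNA from epididymal white fat, a visceral depot, of male C57BL/6 mice aged 16 weeks and fed chow. AFO mice carried floxed Fto together with a Cre recombinase under adiponectin regulatory sequence, and control mice carried floxed Fto without the Cre, so both genotypes share the floxed allele. Each genotype had 3 arrays, each hybridised with the RNA of an independent pool of mice. The pools are numbered within each genotype, and what equal numbers have in common is not stated. A difference within a pool, as given below, sets the AFO and control arrays of equal number side by side and is descriptive. Adiponectin sequence drives the Cre in fat cells, while the RNA came from whole tissue, which also holds vessel, immune and stromal cells.

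In textbook terms, METTL3 transfers the methyl group from S-adenosylmethionine to adenosine, METTL14 holds the RNA beside it, and WTAP keeps the pair in nuclear speckles together with ZC3H13, the ubiquitin ligase Hakai (encoded by Cbll1) and RBM15, which binds RNA and directs the complex to sites. YTH domain proteins recognise the methylated base, YTHDF proteins in the cytoplasm, where they act on decay and translation, and YTHDC1 in the nucleus, where it acts on splicing and export. FTO removes the methyl group of the related cap nucleotide m6Am. Like ALKBH5 it also removes m6A, so a deletion of Fto acts on the mark that the writers make and the readers bind. The comparison asks whether transcripts of that machinery differ between fat with and without the Cre.

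The arrays did not all resemble each other. The mean log2 level of 8 fat cell markers ran from 11.27 to 11.83 over the AFO arrays and from 11.54 to 11.78 over the control arrays. Of the 8 markers 0 were higher in AFO fat, and their mean differed by -0.20 over all pools and by 0.06, -0.43 and -0.22 within pools 1, 2 and 3. Among them Adipoq read 13.14 to 13.42 in AFO fat and 13.30 to 13.43 in control fat, while Lep, which encodes leptin, ranged from 6.57 to 8.06 in AFO fat and from 6.51 to 8.40 in control fat. On pool 2, in either genotype, markers of other cells departed from the rest. There the mean level of 5 measured B cell markers was 8.12 in AFO and 7.63 in control fat, against 4.85 to 5.37 on the other arrays, and that of 5 mesothelial markers was 4.44 in AFO and 5.36 in control fat, against 8.13 to 8.27 elsewhere. The mean of 6 skeletal muscle markers was higher in AFO than in control fat within pools 1, 2 and 3, by 4.28, 2.38 and 0.17. In pool 3 the markers were split, with Acta1, Myh4 and Ckm higher in AFO fat and Mylpf, Tnnt3 and Actn3 lower. Fto itself did not separate the genotypes. In AFO pool 1 the mean of 4 epididymis markers was 7.58, against 4.87 to 5.29 on the other 5 arrays. Lcn8, Lcn9 and Adam7 were highest on that array, while Defb1 read 4.88 there, within the 4.55 to 5.11 of the other 5. In RNA quality AFO pool 3 stood apart. Its Actb control probe sets read 1.33 log2 units more at the 3' end than at the 5' end, against 0.73 to 0.95 on the other 5 arrays, and for Gapdh the gap was 0.38 against -0.12 to 0.19.

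None of the 9 genes passed the test between the genotypes, and each was present at a level well within the measured range in both. With limma over 13453 genes and Benjamini-Hochberg adjustment, 0 of 9 members passed an adjusted p of 0.05, where 0.0% of all tested genes did. At an unadjusted p under 0.05 there were also 0 of 9, where 1.03% of all genes had one. The differences, AFO minus control, ran from -0.18 for Ythdc1 to 0.15 for Zc3h13. In 0 of 9 genes did the 3 AFO values lie apart from the 3 control values, against 3.5% of all genes. The 95% intervals of the differences reached from -0.55 to 0.48 at their ends, which is 0.683-fold to 1.4-fold, and for 8 of the 9 they lay within 0.5 log2 units of 0, as they did for 41.3% of all tested genes. In a whole tissue a lower level can come from fewer cells of a type or from less RNA per cell, and these arrays cannot tell the 2 apart.

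**Figure D1:**
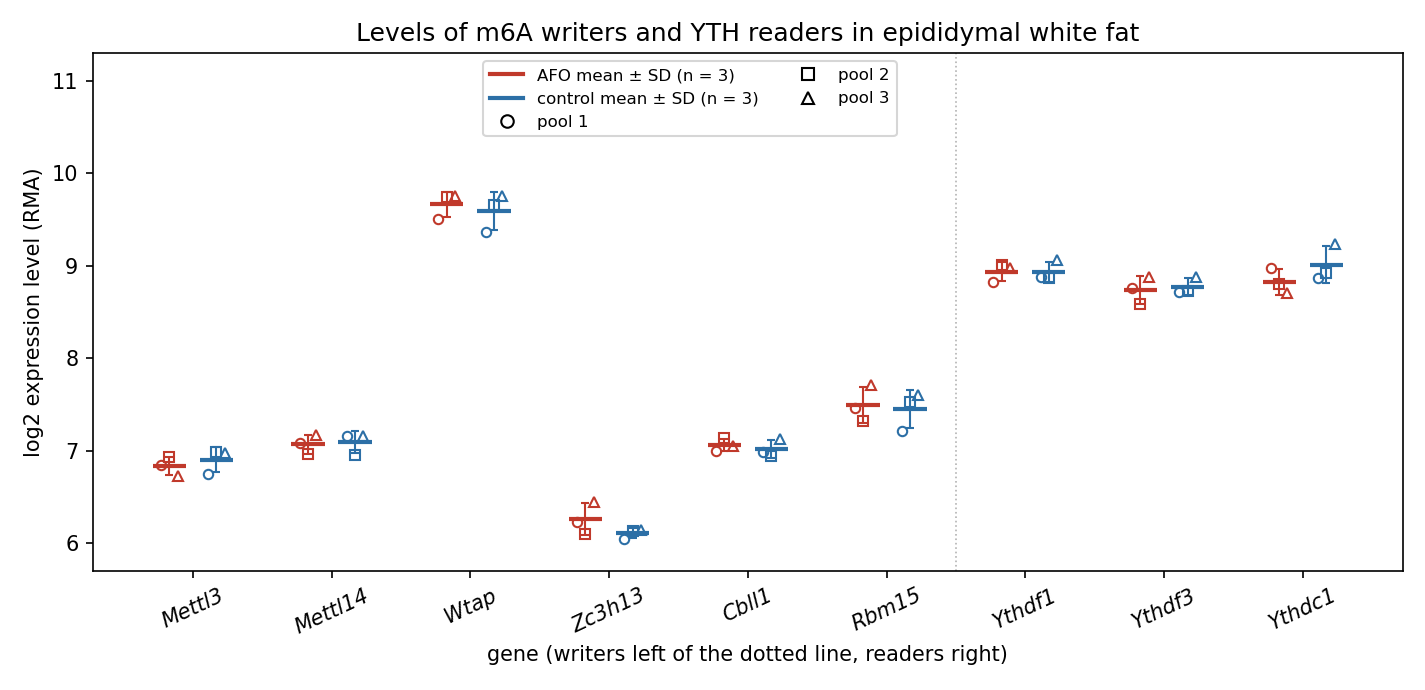
Log2 expression level (vertical axis) of the 9 genes (horizontal axis) on each of the 6 arrays, AFO left of control within each gene, with the pool as the symbol, the mean as a horizontal bar and the SD as an error bar (n = 3). The AFO and control points overlap in every gene, and Ythdc1 shows the widest gap between the means (-0.18).

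The promoters of Mettl3, the catalytic subunit, and of Ythdc1, the reader with the largest genotype difference, are printed below as the RefSeq sequence of the 250 bases before each gene's start (build GRCm38.p6), to show what kind of start region these genes have. Mettl3 lies on the minus strand (chr14:52305125-52305374) and Ythdc1 on the plus strand (chr5:86804016-86804265). Capitals mark matches, on either strand, to the GC box GGGCGG, the ETS core CCGGAA, the CCAAT box CCAAT, the CRE core TGACG or the TATA box TATAAA.
Mettl3: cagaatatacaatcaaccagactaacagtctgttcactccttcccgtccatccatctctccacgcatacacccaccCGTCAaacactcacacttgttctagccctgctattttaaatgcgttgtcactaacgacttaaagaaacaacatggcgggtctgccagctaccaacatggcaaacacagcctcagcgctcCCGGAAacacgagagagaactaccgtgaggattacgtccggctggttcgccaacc
Ythdc1: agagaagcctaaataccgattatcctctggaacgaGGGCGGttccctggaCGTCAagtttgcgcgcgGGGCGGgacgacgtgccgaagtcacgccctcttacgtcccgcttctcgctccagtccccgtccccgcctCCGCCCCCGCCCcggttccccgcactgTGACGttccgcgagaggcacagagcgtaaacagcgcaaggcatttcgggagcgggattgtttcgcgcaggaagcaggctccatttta
The Ythdc1 window held 4 GC boxes and 2 CRE cores, and the Mettl3 window 1 ETS core and 1 CRE core. RefSeq promoters were matched by symbol for 8 of the 10 genes, all but Mettl14 and Ythdf3. The GC box was found in 6 of these 8 windows and in 32.7% of 32851 promoter windows of the same length, the CRE core in 4 of 8 and 17.8%, the ETS core in 3 of 8 and 12%, the CCAAT box in 3 of 8 and 33.8%, and the TATA box in 0 of 8 and 12.4%. The 8 windows held 13 to 30 CpG dinucleotides each, against a median of 6 over the 32851, and had a GC content of 50.4% to 68.4% against a median of 52.4%. These are letter matches, and none was tested as a site.

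Mettl3, which makes the methyl transfer, was measured by probe set 1423099_a_at, which read 6.85, 6.93 and 6.73 in AFO pools 1, 2 and 3, against 6.74, 6.99 and 6.97 in control pools 1, 2 and 3. AFO pool 3 was the lowest value and control pool 2 the highest, and the groups overlapped. The AFO mean was 6.84 ± 0.10 and the control mean 6.90 ± 0.14 (SD, n = 3 for both), and they differed by -0.07 (SE 0.14, 95% interval -0.39 to 0.26, or 0.762-fold to 1.20-fold). The limma adjusted p was 0.999999 for each of the 9 genes. Mettl14, its RNA-binding partner (1454751_at), read 7.09, 6.96 and 7.16 in AFO pools, against 7.16, 6.95 and 7.16 in control pools. In both genotypes pool 2 was lowest and the 2 other pools were close together. The difference was -0.02 (SE 0.13, interval -0.34 to 0.30). Both genes of the catalytic pair were read by 1 probe set each, so no second measure of them was available here, and the sign of Mettl14 turned when 1 array was left out (-0.09 to 0.03).

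Wtap, the speckle anchor of the complex (1452401_at), read 9.51, 9.74 and 9.75 in AFO pools 1, 2 and 3, against 9.37, 9.66 and 9.75 in control pools. Pool 1 was lowest in both genotypes and the values of pool 3 were nearly equal. The difference was 0.07 (SE 0.15, interval -0.29 to 0.44). Its other probe set, 1454805_at, read 8.53, 8.66 and 8.56 in AFO fat, against 8.49, 8.68 and 8.51 in control fat, and differed by 0.02 (SE 0.13). There pool 2 was the highest array of each genotype.

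Zc3h13, a zinc finger protein that in mouse cells keeps the complex in the nucleus, showed the largest positive difference of the 9. Its brightest probe set, 1434894_at, read 6.23, 6.10 and 6.44 in AFO pools, against 6.04, 6.13 and 6.15 in control pools, a difference of 0.15 (SE 0.14, interval -0.18 to 0.48, unadjusted p = 0.32 by limma). It was 0.06 without AFO pool 3, 0.23 without AFO pool 2 and 0.08 as the mean of the tested Zc3h13 probe sets. AFO was higher in pools 1 and 3, by 0.19 and 0.30, and lower in pool 2, by -0.03. A dimmer probe set, 1445499_at, at 4.68 to 5.28 in AFO and 4.93 to 5.09 in control fat differed by 0.001 (SE 0.18), and within pools 1, 2 and 3 by 0.06, 0.35 and -0.41, so it moved against the brightest in pools 2 and 3. A Zc3h13 probe set just below the detection filter, 1430568_at, with a mean of 4.86 where the filter stood at 4.88, read 4.84, 5.03 and 4.98 in AFO fat, against 4.67, 5.01 and 4.64 in control fat, and was not tested. The 3 probe sets of this gene thus gave differences of 0.15, 0.001 and 0.17.

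Cbll1, which encodes the ligase Hakai (1421122_at), read 6.998, 7.13 and 7.05 in AFO pools, against 6.98, 6.94 and 7.13 in control pools. It had the narrowest spread of the 9, at 0.19 log2 units between its lowest and highest array, and differed by 0.04 (SE 0.12, interval -0.26 to 0.34). Its other probe set, 1437203_at, read 6.90, 6.76 and 6.33 in AFO fat, against 6.68, 6.54 and 6.76 in control fat, with AFO higher in pools 1 and 2 and lowest of all arrays in pool 3, and differed by 0.0069 (SE 0.19). Rbm15, an RNA-binding adaptor known from Xist silencing (1434514_at), read 7.47, 7.32 and 7.71 in AFO pools, against 7.22, 7.53 and 7.60 in control pools. Pool 3 was highest in both genotypes, AFO was lower in pool 2 by -0.21, and the difference was 0.05 (SE 0.17, interval -0.36 to 0.45).

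Among the readers, Ythdf1, a cytoplasmic YTH protein linked to translation (1437456_x_at), read 8.82, 9.01 and 8.98 in AFO pools, against 8.88, 8.87 and 9.06 in control pools. The genotypes overlapped, with a difference of -0.0007 (SE 0.13, interval -0.30 to 0.30) that turned to 0.01 with quantile normalisation and 0.0074 with median centring. The other Ythdf1 probe sets, 1415767_at and 1437102_at, differed by 0.07 (SE 0.15) and 0.03 (SE 0.15). Ythdf3, another cytoplasmic YTH protein (1426840_at), read 8.76, 8.58 and 8.88 in AFO pools, against 8.72, 8.72 and 8.88 in control pools, a difference of -0.03 (SE 0.13, interval -0.35 to 0.29). Pool 3 was highest in both genotypes. Its other probe sets, 1426841_at and 1426842_at, differed by 0.0092 (SE 0.18) and -0.05 (SE 0.20). The dimmest of them, 1426842_at, read 8.26, 8.14 and 8.03 in AFO fat, against 7.93, 8.05 and 8.60 in control fat, the widest spread of any tested probe set of the 9 genes at 0.68 log2 units.

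Ythdc1, the nuclear reader, showed the largest difference of the 9, and it rested on pool 3. Its brightest probe set, 1456699_s_at, read 8.98, 8.80 and 8.70 in AFO pools 1, 2 and 3, against 8.87, 8.92 and 9.24 in control pools. Within pools AFO differed from control by 0.11, -0.12 and -0.53. Control pool 3 was the highest array and AFO pool 3 the lowest. The AFO mean of 8.83 ± 0.14 and the control mean of 9.01 ± 0.20 (SD, n = 3 for both) differed by -0.18 (SE 0.15, interval -0.55 to 0.19, unadjusted p = 0.28 by limma), by -0.07 without control pool 3, by -0.12 without AFO pool 3 and by -0.09 as the mean of its probe sets. Its other probe set, 1426827_at, read 8.66, 8.52 and 8.43 in AFO fat, against 8.52, 8.51 and 8.60 in control fat, and differed by -0.0064 (SE 0.13). AFO pool 3 was the lowest array there as well, and the pool 3 difference was -0.17.

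By role, 4 of 6 writers lay higher in AFO fat (median 0.04) and 0 of 3 readers did (median -0.03), where 45.7% of all genes lay higher. Lower differences came to 5 of 9, against 54.3% of all genes. The reader count rested on the brightest probe sets. The other reader probe sets lay at 0.07 and 0.03 for Ythdf1, 0.0092 and -0.05 for Ythdf3 and -0.0064 for Ythdc1. The writer subunits outside the 9 genes, Virma (-0.17) and Rbm15b (-0.06), were both lower. The 95% interval of each of the 9 included 0, and under quantile normalisation or median centring Ythdf1 joined the higher side. The count of 4 higher members became 7 without control pool 3 and 3 without AFO pool 3 or control pool 1. The median of the 9 differences was -0.0007, against -0.01 over all tested genes, and the median size regardless of sign was 0.05 against 0.09. Over the 17 tested probe sets 10 were higher and 7 lower, against 42.0% higher among 23142 probe sets, with 6 higher without control pool 1 and 6 without control pool 2. Of these 17 probe sets 0 passed an adjusted p of 0.05 by limma (0.0% of all probe sets), 0 had an unadjusted p under 0.05 (0.907% of all), and 0 had groups that did not overlap (3.33% of all). Their intervals ended between -0.56 and 0.50.

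**Figure D2:**
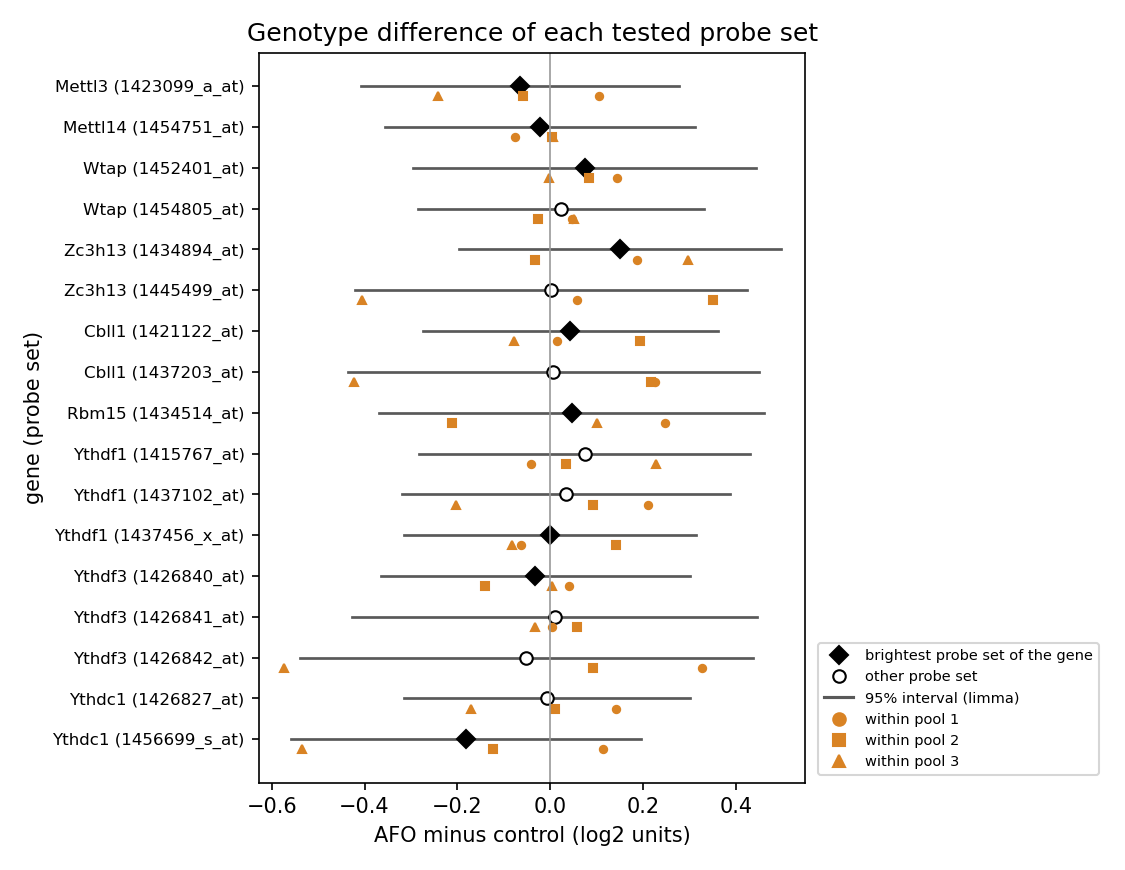
AFO minus control in log2 units (horizontal axis) for each of the 17 tested probe sets (vertical axis), with the 95% limma interval of the fit over all probe sets as a line, filled diamonds for the brightest probe set of a gene, open circles for the others and small orange symbols for the difference within each pool. Every interval includes 0, and the pool 3 symbols of 1426842_at (-0.57) and 1456699_s_at (-0.53) lie farthest out.

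Between arrays of equal pool number, which are not known to be pairs, the direction of the genotype difference varied with the number. In pool 1, 14 of the 17 probe sets were higher in AFO fat (median 0.10), where 55.9% of all tested probe sets were. In that pool the AFO array also exceeded the control array in epididymis markers, by 2.56 on the list mean, and in muscle markers, by 4.28, and their part in the count was not tested. In pool 2 it was 11 of 17 (median 0.03), where 47.2% of all were, and in pool 3 it was 6 of 17 (median -0.08), where 39.8% of all were. AFO pool 3 had the widest 3' to 5' gap of the Actb control probe sets, at 1.33 against 0.73 to 0.95 on the other arrays. The part of RNA quality in the pool 3 count was not tested. The probe set counts of the members and of the whole array differed between pools in the same order. Counted by gene, 7, 4 and 4 of the 9 members were higher in pools 1, 2 and 3, where 55.7%, 45.3% and 44.7% of all genes were. The medians of the 9 genes were 0.10, -0.03 and -0.0037, so the fall from pool 2 to pool 3 was not seen by gene. Of the 17 probe sets 0 kept 1 sign in the 3 pools, which 21.9% of all tested probe sets did, and of the 9 genes also 0, where 23.5% of all genes did.

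Probe sets of the same gene gave a way to see how firmly a small difference can be read. Their brightness differed more than the genotypes did, by 1.06 log2 units between the Wtap probe sets, 1.18 between the tested Zc3h13 probe sets and 1.24 among those of Ythdf1. The gap was smaller for Ythdf3 (0.59), Cbll1 (0.38) and Ythdc1 (0.38). Brightness therefore depends on the probes, and the levels of different genes are no ranking of mRNA abundance. The means of the probe sets used for the 9 genes lay between 6.18 for Zc3h13 and 9.63 for Wtap, which is brighter than 63.3% of all probe sets for Zc3h13, 72.8% for Mettl3 and 95.6% for Wtap. After each probe set was centred on its own mean, the widest gap between probe sets of a gene on any array ran from 0.19 for Wtap to 0.58 for Zc3h13. On the genotype difference the order was another one. The differences of the probe sets lay 0.04 apart for Cbll1, 0.05 for Wtap, 0.06 for Ythdf3, 0.07 for Ythdf1, 0.15 for Zc3h13 and 0.18 for Ythdc1. In Wtap, Zc3h13, Cbll1 and Ythdc1 the tested probe sets shared a sign, and in Ythdf1 and Ythdf3 the signs were mixed. The shared signs included values near 0, at 0.001 in Zc3h13, 0.0069 in Cbll1 and -0.0064 in Ythdc1. These probe sets, and the dimmer of Wtap (0.02), took both signs when 1 array was left out.

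The array on which the probe sets of a gene parted most was AFO pool 3 in 4 of the 6 genes with several tested probe sets (Zc3h13, Cbll1, Ythdf1 and Ythdf3) and control pool 3 in the other 2 (Wtap and Ythdc1). Over 5863 genes with several tested probe sets it was AFO pool 3 in 37.8% and control pool 3 in 18.0%. AFO pool 3 is also the array with the widest 3' to 5' gap of the Actb control probe sets, and the part of RNA quality in these gaps was not tested. The widest gap of a gene had a median of 0.31 over the 6 members and 0.43 over the 5863 genes.

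**Figure D3:**
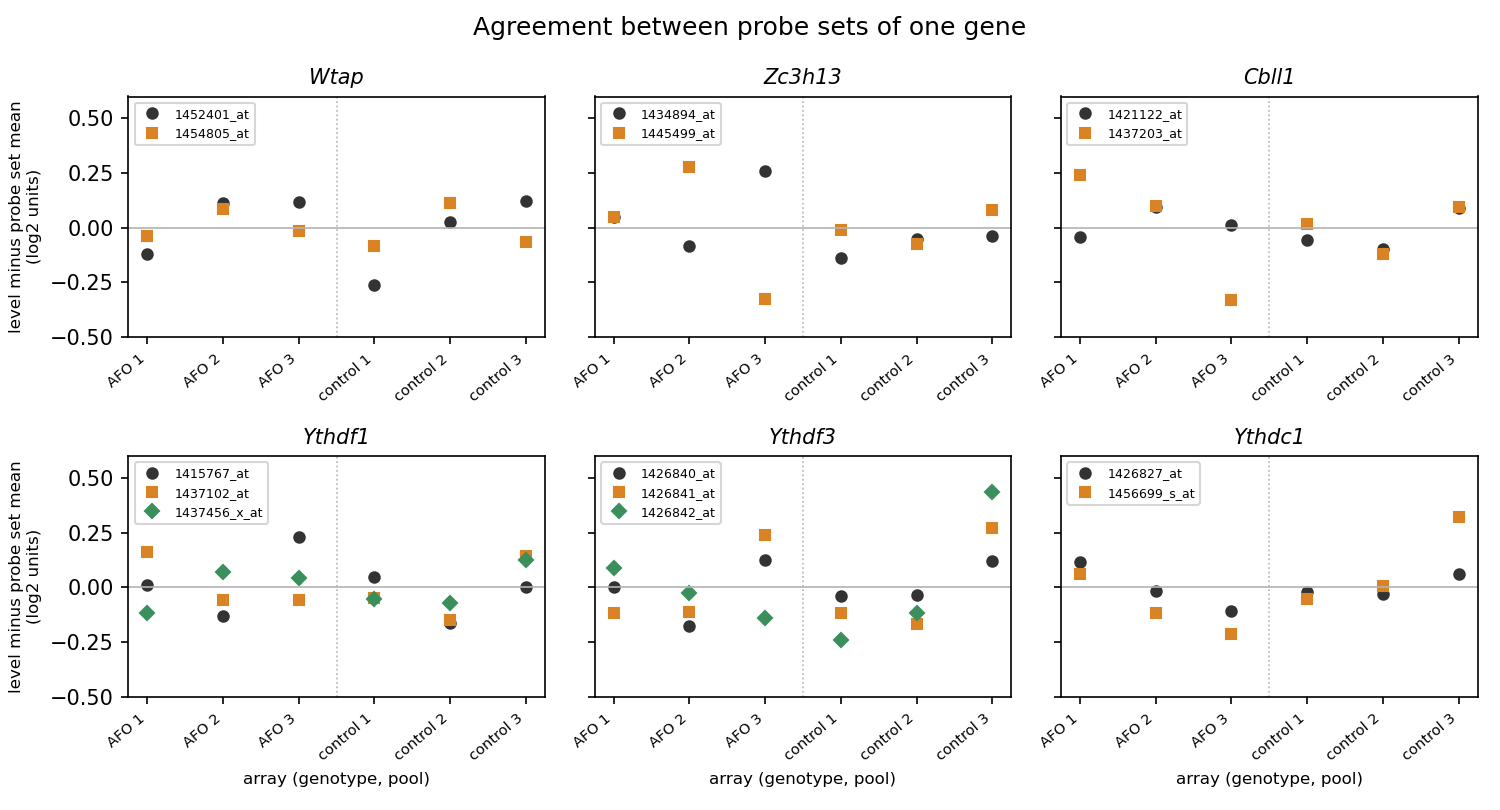
Level minus the probe set's own mean in log2 units (vertical axis) on each array (horizontal axis, AFO left of control), with 1 symbol for each tested probe set of the 6 genes that have several. The symbols of Wtap stay within 0.19 of each other, while those of Zc3h13 part by 0.58 and those of Cbll1 by 0.34 on AFO pool 3.

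The spread over the 6 arrays depended on the probe set. On the brightest probe set of each gene the highest and lowest arrays differed by 0.19 for Cbll1 to 0.53 for Ythdc1, with a median of 0.30 over the 9 genes against 0.57 over all tested genes, and 9 of 9 lay below that median. Other probe sets of the same genes spread more widely, by 0.569 for Cbll1 1437203_at, 0.599 for Zc3h13 1445499_at and 0.676 for Ythdf3 1426842_at. On the brightest probe sets the difference between the pool 2 arrays and the mean of pools 1 and 3, averaged over the genotypes, ran from -0.19 for Mettl14 to 0.14 for Mettl3, with a median size of 0.10 against 0.25 over all tested genes, and 9 of 9 lay below that median too. On the same scale the B cell markers differed by 2.86, the mesothelial markers by -3.30 and the skeletal muscle markers by 4.54. The muscle markers were also high outside pool 2, with a mean of 9.75 on AFO pool 1 against 9.69 on control pool 2. Against the mean of pools 1 and 3, Mettl3 was higher in pool 2 in both genotypes, by 0.14 in AFO and 0.13 in control fat. Its control pools 2 and 3 were close, at 6.99 and 6.97. Mettl14 was lower in both, by -0.17 and -0.21. Wtap lay above that mean in both, by 0.11 and 0.10, because pool 1 was low. Its pool 2 values (9.74 in AFO, 9.66 in control fat) were below those of pool 3 (9.749 and 9.753). Zc3h13, Cbll1, Rbm15 and Ythdf1 moved in opposite directions in the genotypes. Pool 2 is no group of the study and no test was made of it. Without the pool 2 arrays the genotype differences of the 9 genes ran from -0.21 for Ythdc1 to 0.24 for Zc3h13, 0 of 9 genes passed, and 7 of the 17 probe sets were higher in AFO fat.

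**Figure D4:**
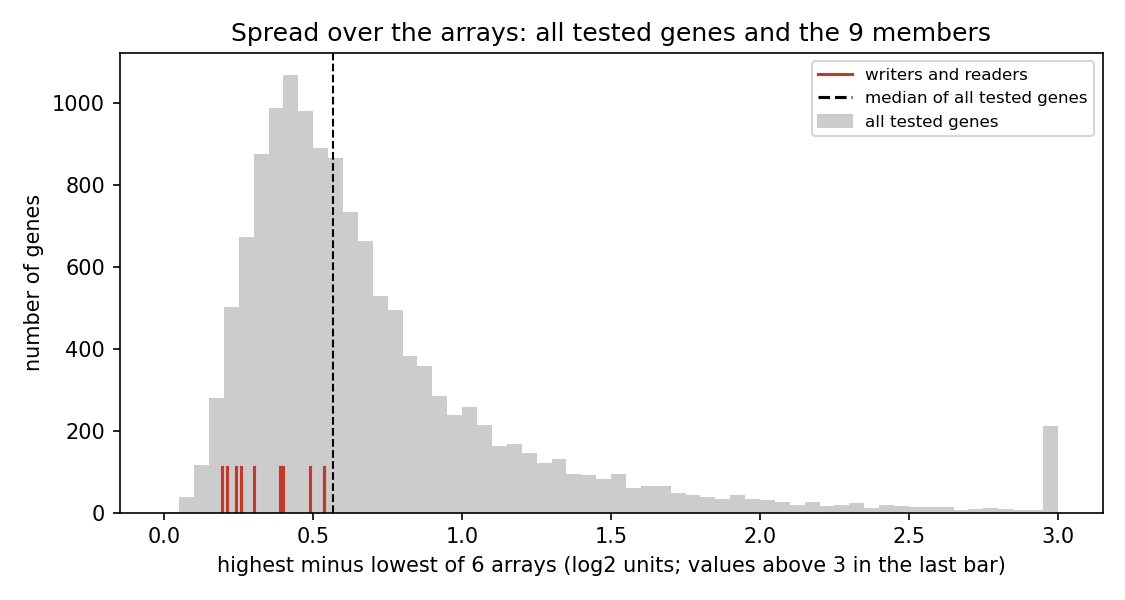
Number of tested genes (vertical axis) by the difference between their highest and lowest array in log2 units (horizontal axis, with values above 3 in the last bar), in grey, with the median of all tested genes as a dashed line (0.57) and the brightest probe sets of the 9 writers and readers as red marks. The marks lie between 0.19 and 0.53, left of the dashed line.

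Of 28 other genes of the m6A pathway 25 were tested, and 0 passed by limma or had an unadjusted p under 0.05, with 11 higher and 14 lower in AFO fat (median -0.02, against -0.01 over all tested genes). The remaining writer subunits were both lower. Virma, the scaffold of the complex, read 8.23, 7.96 and 8.20 in AFO pools, against 8.33, 7.92 and 8.64 in control pools, a difference of -0.17 (SE 0.21) that was 0.0069 without control pool 3, and Rbm15b, a paralogue of Rbm15, differed by -0.06 (SE 0.13). Of 6 other RNA methyltransferases 4 were higher and 2 lower, from -0.07 (SE 0.25) for Mettl16, which methylates U6 small nuclear RNA, to 0.08 (SE 0.14) for Trmt112, the partner of Mettl5. Of 8 other m6A binding proteins 4 were higher and 4 lower, from -0.06 (SE 0.26) for Prrc2a to 0.13 (SE 0.19) for Igf2bp3, an mRNA-stabilising protein. Of 5 partners of the readers 1 was higher and 4 lower, from -0.15 (SE 0.15) for the splicing factor Srsf10 to 0.04 (SE 0.18) for the export receptor Nxf1. Both tested genes of methyl donor supply were higher, the S-adenosylmethionine synthase subunit Mat2b by 0.10 (SE 0.14) and Ahcy, which clears the product S-adenosylhomocysteine, by 0.07 (SE 0.43).

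The erasers were also both lower without passing. Alkbh5 read 8.97, 8.81 and 8.74 in AFO pools, against 8.88, 8.83 and 9.19 in control pools, a difference of -0.13 (SE 0.15) that was -0.02 without control pool 3 and -0.08 without AFO pool 3. Fto read 6.13, 5.45 and 5.95 in AFO pools, against 6.11, 6.20 and 5.59 in control pools, a difference of -0.12 (SE 0.25) that was 0.19 without the pool 2 arrays. The position of its probe sets relative to the floxed exon is not given in the sources used here, so Fto does not check the genotype on these arrays. Control pool 3 was the highest array for Virma and Alkbh5, as it was for the brightest Ythdc1 probe set.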

How the data were processed

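Levels were read from 6 Affymetrix arrays. The authors deposited log2 values, made by RMA in Affymetrix Expression Console 1.4, per the submitters' processing notes. RMA is known to subtract background, set the probe intensities of the arrays to 1 distribution and summarise each probe set. A shift shared by most genes can thus be hidden, and differences of dim probe sets can be understated. Neither the mice per pool nor the genome build of the annotation is given in the sources used here. Array medians of the deposited values ran from 5.35 to 5.43, so these values were not on exactly 1 distribution. Quantile normalisation of them moved the median difference over all tested genes from -0.0142 to 6.03e-05. A small shift between arrays can therefore remain in the differences given here. Precision is limited by having 6 arrays.

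Of 45101 probe sets, 64 were controls, 34945 had 1 gene symbol, 932 several and 9160 none listed. A detection filter at the 40th percentile of probe set means (4.88) left 23142 probe sets, and each gene was read from its brightest one (13453 genes). The genotype test used limma 3.58.1 (R 4.3.3, empirical Bayes with trend, unpaired, Benjamini-Hochberg), once over genes and once over probe sets, after a test on simulated data. Equal pool numbers deviated together across genes (correlations 0.594, 0.799 and 0.589). Of the unequal numbers, AFO 3 with control 1 (0.441) and AFO 1 with control 3 (0.362) were also positive and the 4 that involve 1 pool 2 array lay between -0.656 and -0.585. All equal pairs passed 0.1, and the numbers were taken as pairs in an alternative with pool as a block. The deviations were taken from the mean of each genotype and sum to 0 over its 3 pools. A departure of pool 2 in both genotypes can thus make every correlation among pools 1 and 3 positive. Passing 0.1 therefore cannot show that pools 1 and 3 are pairs. What equal numbers have in common is not stated.

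The members, gene lists, motifs and alternatives were chosen with earlier results of these data known. The 10 members are named, 9 of them with each of their probe sets, and from the other lists the genes with the lowest and highest difference, whatever their p. Cell type markers and RNA quality were described without a test. Alternatives changed the filter, scaling, variance model, array weights, block, arrays left out and choice of probe set. Sequences are from RefSeq (GRCm38.p6).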

Additional observations from a re-analysis of the deposited data

How the results depend on the processing

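The 9 genes were recomputed under 18 alternatives and 0 were called in any of them, with limma adjusted p from 0.829 to 1. Of 162 such values 141 kept the direction and 21 turned, and they ran from -0.26 to 0.27. The block on pool number (replicate block) changed no call of a member. Over all genes it called 2 in place of 0, and 2 probe sets in place of 0. Without the pool 2 arrays 91 genes and 86 probe sets passed, and with the block added 270 and 127, with 0 members among them. Leaving out 1 array gave 0 to 27 genes and 0 to 21 probe sets, with the highest of both reached without AFO pool 2, and put 3 to 7 of 9 members and 6 to 14 of 17 member probe sets on the higher side. Array weights, from a fit that did not fully converge and gave control pool 1 a weight of 8.32 against 0.298 to 1.26 for the others, put 7 members on the higher side. Under them Mettl3 was at 0.0413, Ythdf1 at 0.0062, Ythdf3 at 0.0516, Zc3h13 1445499_at at -0.0491, Cbll1 1437203_at at -0.0023, Ythdf3 1426842_at at 0.1558 and Ythdc1 1426827_at at 0.0300. Quantile normalisation put Ythdf1 at 0.0140 and Ythdc1 1426827_at at 0.0130, and median centring put them at 0.0074 and 0.0016. Ythdf1 was at 0.0356 as the mean of its probe sets and at 0.0738 where probe sets ending in _x_at or _s_at were passed over. Without the pool 2 arrays, with or without the block, Cbll1 was at -0.0318, Ythdf3 at 0.0217, Fto at 0.1938, Ythdc2 at -0.0213, Zc3h13 1445499_at at -0.1741, Cbll1 1437203_at at -0.0985 and Ythdf3 1426841_at at -0.0149. With 1 array left out the differences ran from -0.0906 to 0.0333 for Mettl14, -0.0388 to 0.1548 for Wtap, 0.0578 to 0.2301 for Zc3h13, 0.0049 to 0.0988 for Cbll1, -0.1443 to -0.0126 for Mettl3, -0.2572 to -0.0668 for Ythdc1, -0.1986 to -0.0173 for Alkbh5, -0.1457 to -0.0133 for Rbm15b, -0.0703 to 0.1351 for Rbm15, -0.0367 to 0.0618 for Ythdf1, -0.1029 to 0.0474 for Ythdf3, -0.3078 to 0.0777 for Fto, -0.3549 to 0.0069 for Virma and -0.0086 to 0.1028 for Ythdc2. For single probe sets they ran from -0.0126 to 0.0862 for Wtap 1454805_at, -0.1365 to 0.1631 for Zc3h13 1445499_at, -0.1119 to 0.1728 for Cbll1 1437203_at, -0.023 to 0.1566 for Ythdf1 1415767_at, -0.0396 to 0.1147 for Ythdf1 1437102_at, -0.1089 to 0.1482 for Ythdf3 1426841_at, -0.1848 to 0.1531 for Ythdf3 1426842_at and -0.0668 to 0.0462 for Ythdc1 1426827_at. The cause of these changes was not tested. In the unpaired genotype test over all 3 arrays per genotype, the interval of each of the 9 genes included 0. The differences of the 9 genes in that test could therefore not be told from 0.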
